A study of Mus musculus with 36 samples.

Results

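The 27 genes examined here encode the enzymes of cholesterol synthesis, the SREBP proteins that control them and carriers of cholesterol inside the cell. They were chosen by gene name, and each name matched 1 row of a table of 54532 genes. The table holds RNA-seq counts for mouse bone marrow-derived macrophages (BMDMs) in 36 libraries. WT cells (n = 3 replicates) came from Bmal1 flox/flox mice, and KO cells (n = 6 replicates) from LysM-Cre;Bmal1 flox/flox mice, in which the myeloid LysM promoter drives the Cre recombinase that excises part of Bmal1. Both genotypes therefore carry the floxed alleles, on the C57BL/6 strain, and the donors were females 13 to 17 weeks of age. Bone marrow cells were grown into macrophages with MCSF and then received DMSO vehicle, 100 µM CCM, 100 nM LPS or both agents for 6 h. CCM (Core Circadian Modulator) is a small molecule that binds the clock protein BMAL1, and LPS is a bacterial cell wall component that activates macrophages. The study describes the replicates as biological, from female mice, but the labels do not tie single libraries to animals.

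Cholesterol is built from acetyl units. The mevalonate steps make isoprenoid building blocks, which also feed protein prenylation, and the squalene and sterol steps join them into squalene, close the rings and trim the product into cholesterol. When membrane sterol falls, the escort protein Scap carries SREBP from the endoplasmic reticulum to the Golgi for cleavage, and the released factor switches on these enzymes. Insig proteins hold the complex back when sterol is plentiful, and activated macrophages are known to remodel this pathway.

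The libraries held 13469262 to 28288923 gene counts. Summed levels of the 6 macrophage markers were 10796 to 19585 CPM (counts relative to library size, with TMM factors over all 36 libraries), so these markers were high in every library. The sums were 15178 to 19259 CPM in WT. KO replicate 2 was as high, with 17435 (vehicle), 18658 (CCM), 16303 (LPS) and 19585 CPM (LPS+CCM). All other KO libraries lay at 10796 to 13966 CPM. Lyz2, the lysozyme M (LysM) gene whose promoter drives Cre in KO, was the largest term of every sum. It had 5862 to 15185 CPM over all libraries, and no other gene of the list passed 2511 CPM. The sums therefore do not compare macrophage content between genotypes. Why KO replicate 2 differed from the other KO libraries was not tested. The 6 neutrophil markers summed to 261 to 927 CPM and the 4 fibroblast markers to 300.4 to 1648 CPM, whereas B, T, erythroid and dendritic marker lists stayed at or below 14.1 CPM. In bulk RNA, fewer cells of a type and less RNA per cell cannot be told apart. Bmal1 itself had 7.52 to 12.9 CPM in WT and 2.02 to 10.8 CPM in KO libraries. Those counts cover the whole gene, including the part outside the deletion, so they do not check the genotype. The 4 libraries of KO replicate 6 stood apart, with a median correlation with their own group of 0.831 to 0.905, against at least 0.953 for all other libraries. Several KO results are therefore also given without replicate 6, and KO results include it unless stated. The lowest of the other libraries was KO LPS+CCM replicate 5.

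Levels of different members were compared per kilobase of transcript in the 3 WT vehicle libraries. Insig1, which retains SREBP in the endoplasmic reticulum, led with 31.6 ± 2.38 CPM per kb (SD, n = 3), beside Npc1, the lysosomal cholesterol exporter, with 31.5 ± 1.13. Srebf2, the main regulator of sterol genes, followed with 25.7 ± 0.937. Srebf1, its relative that favours fatty acid genes, had 13.6 ± 0.376, while Scap had 8.69 ± 0.349 and Insig2 8.04 ± 0.101. Insig1 and Npc1 did not differ beyond their spread, and neither did Cyp51 (20.4 ± 1.30), Ebp (19.4 ± 2.14) and Mvd (19.1 ± 2.05). Among the enzymes Cyp51 was the highest. Lss (3.03 ± 0.0226), Tm7sf2 (2.33 ± 0.26) and Fdps (0.386 ± 0.0721) were the lowest members, and Fdps rested on so few counts that its values are imprecise. Exons of Fdft1 overlap those of the abundant protease gene Ctsb, so the count of Fdft1 is uncertain. Hmgcs1, Idi1, Fdps, Ggps1, Lss, Cyp51, Tm7sf2, Srebf1, Scap and Npc1 also share exonic positions with other annotated genes. Acat2 has a near copy, Acat3, which had 1 to 94 counts per library.

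Sequences around the start sites were read for 22 of the 27 members from RefSeq (GRCm38.p6), and Fdps, Fdft1, Sqle, Stard4 and Npc1 have no entry. The 30 windows of these members (300 bases, of which 250 lie before the start) were searched on both strands. The core of the sterol regulatory element, TCACNCCAC, was in 1 window (3.33%), that of Hmgcs1, against 1.24% of all 32851 windows. CCAAT, the letters bound by NF-Y, was in 20 windows (66.7%) of 19 members, against 37.4% of all windows. The E-box CACGTG, a sequence that BMAL1 with CLOCK can bind, was in 6 windows of Hsd17b7, Sc5d, Dhcr7, Scap and Insig1 (20% of 30), against 7.15% of all windows. A match is only a description of the letters, and several windows of one gene can overlap. Other spellings of the sterol element were not searched, so a window without this match is not shown to lack one. Below are the 250 bases before the start of 4 members, on the strand of the gene and from 5′ to 3′, with matches in capitals. Hmgcs1 is shown as the holder of the TCACNCCAC match, with CCAAT in reverse as ATTGG. Cyp51 and Sc5d are shown because both were called lower with CCM under LPS in WT, and Hsd17b7 because it had the largest rise with LPS.
Hmgcs1 (chr13:119690101-119690350, plus strand): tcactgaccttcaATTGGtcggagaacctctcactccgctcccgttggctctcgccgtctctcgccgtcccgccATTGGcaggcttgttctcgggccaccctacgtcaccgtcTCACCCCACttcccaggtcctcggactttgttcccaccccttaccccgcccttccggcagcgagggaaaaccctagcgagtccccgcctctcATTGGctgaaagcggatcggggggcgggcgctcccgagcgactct
Cyp51 (chr5:4104698-4104947, minus strand): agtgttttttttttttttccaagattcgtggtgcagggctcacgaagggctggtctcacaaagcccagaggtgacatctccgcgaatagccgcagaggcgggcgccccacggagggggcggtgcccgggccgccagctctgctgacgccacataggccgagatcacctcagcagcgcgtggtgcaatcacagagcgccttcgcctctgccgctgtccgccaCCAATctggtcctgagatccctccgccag
Sc5d (chr9:42264301-42264550, minus strand): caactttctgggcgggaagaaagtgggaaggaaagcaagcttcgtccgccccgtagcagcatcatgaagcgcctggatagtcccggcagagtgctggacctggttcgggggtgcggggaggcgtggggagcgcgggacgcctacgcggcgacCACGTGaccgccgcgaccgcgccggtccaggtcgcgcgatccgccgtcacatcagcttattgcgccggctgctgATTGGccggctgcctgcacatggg
Hsd17b7 (chr1:169969206-169969455, minus strand): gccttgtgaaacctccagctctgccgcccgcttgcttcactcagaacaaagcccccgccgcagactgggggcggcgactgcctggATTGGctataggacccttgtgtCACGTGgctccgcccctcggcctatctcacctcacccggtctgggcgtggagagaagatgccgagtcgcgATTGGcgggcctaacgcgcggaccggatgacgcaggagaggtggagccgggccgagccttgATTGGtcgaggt
The Hmgcs1 window held 1 match to TCACNCCAC and 3 to CCAAT in these bases, and the Hsd17b7 window held 3 CCAAT matches and 1 E-box. Cyp51 held 1 CCAAT, and Sc5d held 1 CCAAT and 1 E-box.

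LPS split the pathway in WT macrophages. Most enzymes of the mevalonate, squalene and sterol steps rose, whereas the sterol enzymes Dhcr7, Tm7sf2 and Ebp and both transport genes fell. Of the 27 members, 15 were called higher and 5 lower (edgeR, Benjamini-Hochberg adjusted p of at most 0.05 over all genes tested). LPS moved most of the transcriptome, with 30.6% of 14501 tested genes called higher and 32.4% lower. The median log2 fold change of the members was 0.23, against -0.05 over all genes tested. These directions depend on the scaling. With total counts alone the median of all genes shifted by -0.41, and 5 members were called higher and 14 lower, against 17.6% and 55.6% of all genes. With upper-quartile factors it shifted by -0.18, and the split was 11 and 7, against 23.7% and 42.1%. Relative to the median of all genes, 21 members lay above and 6 below with each of the 3 scalings. A change of scaling shifts all genes by about the same amount, so this count could hardly change and does not test the directions.

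**Figure D1:**
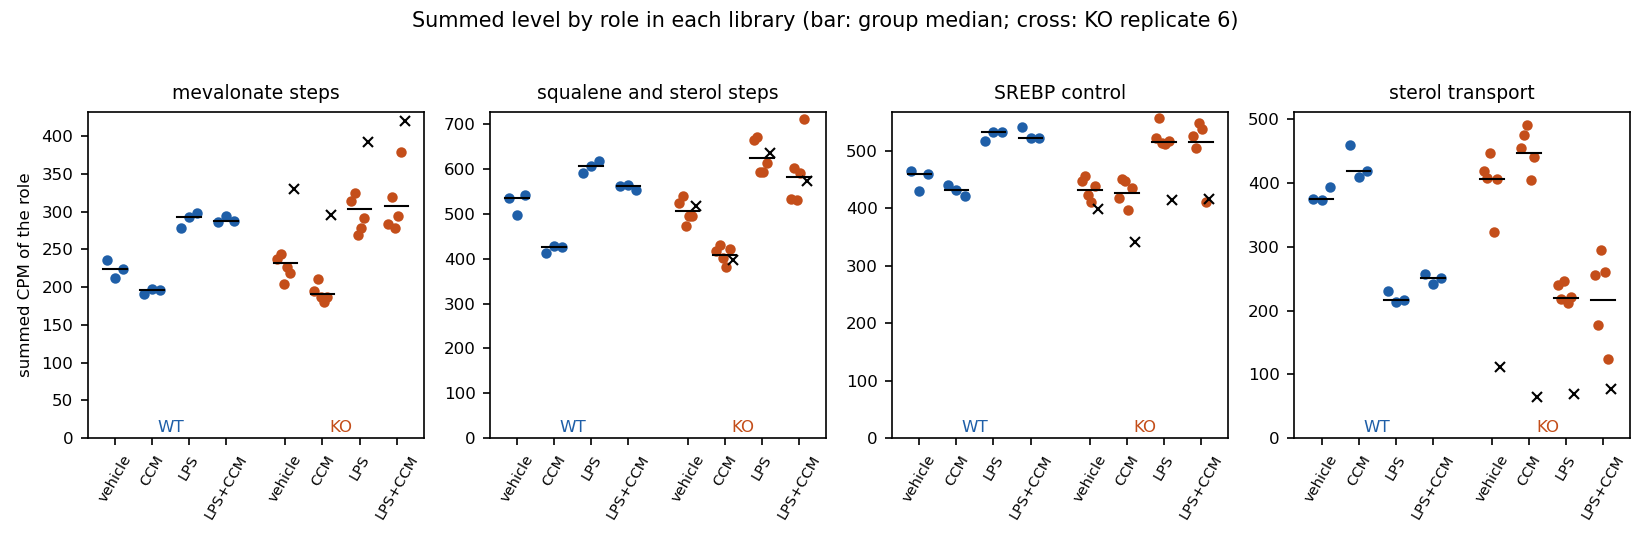
Summed CPM of the members of each role (y axis) in each library, by genotype and treatment (x axis). Points are libraries, bars are group medians and crosses are KO replicate 6. In WT the sum of the squalene and sterol steps was 412 to 428 CPM with CCM and 497 to 542 with vehicle, and the sum of the sterol transport genes lay lower with LPS.

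Of the 9 genes of the mevalonate steps, 7 were called higher with LPS in WT and 0 lower. Idi1 (isopentenyl diphosphate isomerase; ENSMUSG00000058258, chromosome 13, 8885501 to 8892451, mm10) had 16.8, 20.6 and 20.7 CPM with vehicle and 32.8, 36.2 and 32.9 with LPS. All LPS values lay above all vehicle values, and the log2 fold change was 0.84 (edgeR adjusted p = 3.94e-05, SE 0.0990). Fdps, which makes farnesyl diphosphate, had 1.86, 1.73 and 1.28 CPM with vehicle and 2.66, 2.95 and 2.37 with LPS. The groups did not overlap in spite of the low level, and the log2 fold change was 0.75 (edgeR adjusted p = 0.0185, SE 0.236). Acat2, the cytosolic thiolase that opens the pathway (ENSMUSG00000023832, chromosome 17, 12942890 to 12960747), had 15.6, 11.9 and 14.1 CPM with vehicle and 18.8, 22.9 and 22.98 with LPS. Its log2 fold change was 0.67 (edgeR adjusted p = 6.37e-04, SE 0.117), again without overlap. Ggps1 (geranylgeranyl diphosphate synthase), Hmgcs1 (HMG-CoA synthase), Mvd (mevalonate diphosphate decarboxylase) and Aacs (acetoacetyl-CoA synthetase) were also called higher, with log2 fold changes of 0.47, 0.43, 0.34 and 0.22. Leaving out WT LPS replicate 2 or WT vehicle replicate 3 ended the call of Fdps (adjusted p of up to 0.0747 in edgeR), and leaving out WT LPS replicate 2 or 3 that of Aacs (up to 0.0546). The kinases Mvk and Pmvk were not called, at 0.14 and 0.09. Scaled by total counts alone, the log2 values of Mvd and Aacs turned negative (-0.068 and -0.19).

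Of the 11 genes of the squalene and sterol steps, 7 were called higher and 3 lower with LPS in WT. Hsd17b7, a keto-sterol reductase (ENSMUSG00000026675, chromosome 1, 169949535 to 169969241), had 16.9, 16.3 and 20.1 CPM with vehicle and 35.98, 41.3 and 40.8 with LPS. The log2 fold change, 1.17 (edgeR adjusted p = 2.84e-06, SE 0.0972), was the largest rise of the 27. Fdft1, squalene synthase, had 34.01, 28.2 and 30.5 CPM with vehicle and 57.8, 59.4 and 54.1 with LPS, a log2 fold change of 0.91 (edgeR adjusted p = 2.63e-06, SE 0.0750) that its overlap with Ctsb leaves uncertain. Cyp51 (lanosterol demethylase), Lss (lanosterol synthase), Sc5d (sterol desaturase), Sqle (squalene epoxidase) and Msmo1 (sterol methyl oxidase) rose by smaller amounts, with log2 fold changes of 0.59, 0.39, 0.38, 0.34 and 0.23. With total counts alone the values of the last 4 of these turned negative (-0.022 for Lss, -0.033 for Sc5d, -0.072 for Sqle and -0.18 for Msmo1). Nsdhl, a sterol dehydrogenase, was not called at 0.05.

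Dhcr7, which encodes the reductase of the closing step of cholesterol synthesis (ENSMUSG00000058454, chromosome 7, 143823145 to 143848410), moved against most of the pathway. It had 56.3, 52.3 and 60.6 CPM with vehicle and 10.7, 13.1 and 11.8 with LPS. The groups lay far apart, and the log2 fold change of -2.22 (edgeR adjusted p = 1.34e-08, SE 0.0916) was the largest change of any member. Tm7sf2, a sterol reductase, had 13.3, 11.4 and 14.3 CPM with vehicle and 8.62, 6.78 and 8.77 with LPS, a log2 fold change of -0.67 (edgeR adjusted p = 0.00212, SE 0.141). Ebp, a sterol isomerase, had 50.5, 41.4 and 42.5 CPM with vehicle and 28.00, 30.2 and 31.4 with LPS, a log2 fold change of -0.55 (edgeR adjusted p = 2.15e-04, SE 0.0826). In both genes every LPS library lay below every vehicle library.

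**Figure D2:**
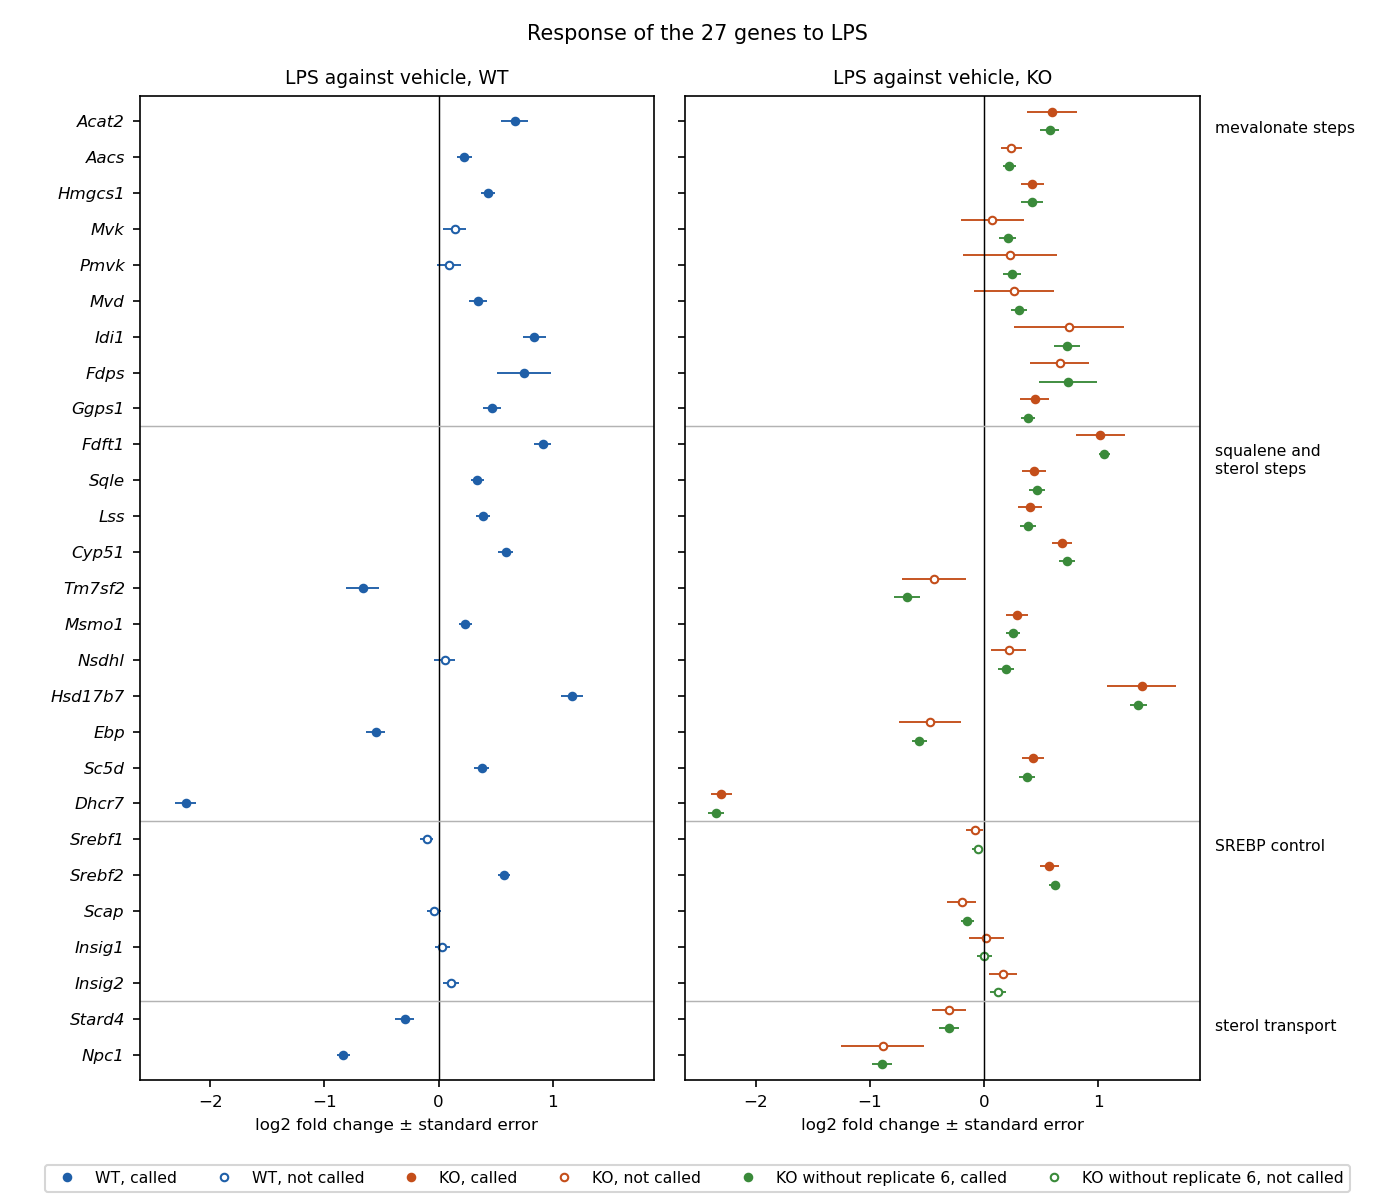
log2 fold change of each member with LPS against vehicle (x axis), with its standard error as a bar, in WT (left) and KO (right, with and without replicate 6). Filled points were called at an adjusted p of at most 0.05. Dhcr7 fell by 2.22 on the log2 scale in WT, while Hsd17b7 rose by 1.17.

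Among the SREBP control genes, 1 of 5 was called with LPS in WT. Srebf2 (ENSMUSG00000022463, chromosome 15, 82147181 to 82205379) had 188, 177 and 189 CPM with vehicle and 258, 274 and 274 with LPS, without overlap and with a log2 fold change of 0.57 (edgeR adjusted p = 8.17e-06, SE 0.0545). Srebf1, Scap, Insig1 and Insig2 were not called, with log2 fold changes of -0.10, -0.04, 0.03 and 0.11. Both transport genes were lower. Npc1 (ENSMUSG00000024413, chromosome 18, 12189693 to 12236400) had 335, 328 and 352 CPM with vehicle and 193, 180.4 and 184 with LPS, a log2 fold change of -0.84 (edgeR adjusted p = 6.62e-07, SE 0.0572). Stard4, a cytosolic cholesterol carrier (ENSMUSG00000024378, chromosome 18, 33199355 to 33213862), had 40.2, 44.3 and 42.5 CPM with vehicle and 37.5, 32.4 and 31.8 with LPS, a log2 fold change of -0.30 (edgeR adjusted p = 0.0105, SE 0.0832). LPS values lay below vehicle values in each of these pairs of groups. The call of Stard4 was lost without WT LPS replicate 2, WT LPS replicate 3 or WT vehicle replicate 2, with adjusted p-values of up to 0.0560 in edgeR.

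In KO macrophages LPS was also followed by higher levels of most enzymes and a lower level of Dhcr7, with 20 members above 0 and 7 below as in WT. With all 6 replicates, 11 members were called higher and 1 lower, against 22.4% of 13648 tested genes higher and 24.7% lower, and the median log2 fold change was 0.26. Without KO replicate 6, 24 members were called, 18 higher and 6 lower, but 32.6% of all genes were then called higher and 36.9% lower. A fit with a replicate block called 24 members too, 18 higher and 6 lower, against 34.1% and 37.5% of all genes. Departures from the group means correlated by 0.345 to 0.907 between same-numbered KO libraries, but by a median of 0.285 between the others. Libraries of different numbers thus also deviated together, and the block rests on a shared number only. With total counts alone, where the median of all genes shifted by -0.38, the split was 3 higher and 7 lower, against 13.4% and 41.8% of all genes. With upper-quartile factors, where the shift was -0.19, it was 5 and 5, against 17.3% and 32.2%. Relative to the median of all genes, 20 members lay above and 7 below with each of these scalings, a count that scaling could hardly change.

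Hsd17b7 ranged from 4.42 to 18.7 CPM (median 17.03) with vehicle and from 16.03 to 47.5 CPM (median 43.1) with LPS in KO. Both lowest values were replicate 6, whose LPS value lay among the vehicle values of the other replicates. The log2 fold change was 1.38 (edgeR adjusted p = 0.00206, SE 0.305). Dhcr7 ranged from 46.9 to 59.8 CPM (median 52.6) with vehicle and from 9.95 to 11.5 CPM (median 10.5) with LPS. These groups did not overlap, replicate 6 included, and the log2 fold change was -2.30 (edgeR adjusted p = 3.75e-10, SE 0.0912). Cyp51 and Srebf2 were called as well, with log2 fold changes of 0.68 (edgeR adjusted p = 3.26e-05, SE 0.0903) and 0.57 (edgeR adjusted p = 7.68e-05, SE 0.0834). Acat2, Hmgcs1 and Ggps1 of the mevalonate steps were called higher at 0.59, 0.42 and 0.44, and Fdft1, Sqle, Lss, Msmo1 and Sc5d at 1.02, 0.44, 0.40, 0.29 and 0.43. The call of Acat2 was lost on leaving out any 1 of KO replicates 1 to 5 (adjusted p of 0.0756 to 0.106 in edgeR), and that of Msmo1 on leaving out replicate 1, 2, 3 or 5 (0.0609 to 0.0758). With total counts alone the value of Msmo1 was -0.10.

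Other members were called in KO once replicate 6 was left out. Npc1 ranged from 84.9 to 406 CPM (median 361) with vehicle and from 47.9 to 213 CPM (median 187) with LPS in KO, and the lowest value of each group was replicate 6. Over all replicates its log2 fold change was -0.89 (edgeR adjusted p = 0.0597, SE 0.362). Without replicate 6 the ranges were 287 to 406 and 179 to 213 CPM, and the log2 fold change was -0.89 (edgeR adjusted p = 1.09e-06, SE 0.0910). Idi1, Tm7sf2, Ebp, Stard4 and the kinases Mvk and Pmvk were likewise called without replicate 6 and not with it, with log2 fold changes of 0.72, -0.68, -0.57, -0.31, 0.20 and 0.24.

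Whether the LPS response differed between genotypes was tested as an interaction. Of the members 0 were called, as were 0% of 15093 tested genes, and DESeq2 called 0. With edgeR 0 members had an unadjusted p under 0.05, against 112 of the 15093 genes. The differences of log2 fold change, KO minus WT, ran from -0.13 to 0.24. For Dhcr7 the difference was -0.06 with a standard error of 0.138, and for Cyp51 it was 0.11 with a standard error of 0.135. The intervals around these values are wide, so the genotypes are not shown to act alike.

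With CCM alone most sterol enzymes lay lower than with vehicle in both genotypes, though few passed the test. In WT, 23 of the 27 members had a negative log2 fold change, with a median of -0.21, against -0.01 over all genes tested. All 11 genes of the squalene and sterol steps and 8 of the 9 of the mevalonate steps were below 0, with medians of -0.31 and -0.22. The test called 1 member lower and 0 higher, against 0.00713% of 14024 genes called lower and 0.0499% higher, and 14 members had an unadjusted p under 0.05, as did 10% of all genes. The vehicle libraries here are those of the LPS comparison, so both comparisons share them. Testing with no filter beyond 1 count called 5 members, all lower, against 0.910% of all genes called lower. DESeq2 called 5 members lower (Fdft1, Sqle, Cyp51, Msmo1 and Nsdhl) and Npc1 higher, against 1.06% of all genes lower and 1.34% higher.

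Sqle (ENSMUSG00000022351, chromosome 15, 59315077 to 59331192), which encodes the oxygen-dependent squalene epoxidase, was the called member and the only gene called lower in this comparison. It had 64.2, 61.9 and 63.99 CPM with vehicle and 43.9, 48.6 and 44.2 with CCM. The CCM libraries all lay below the vehicle libraries, and the log2 fold change was -0.47 (edgeR adjusted p = 0.0466, SE 0.0610). This call was lost when any 1 of the 6 libraries was left out (WT vehicle replicates 1 to 3 or WT CCM replicates 1 to 3), with adjusted p-values of 0.0557 to 0.265 in edgeR and log2 fold changes of -0.51 to -0.43. Cyp51 had 87.3, 85.9 and 96.5 CPM with vehicle and 60.9, 66.3 and 67.1 with CCM, a log2 fold change of -0.46 (edgeR adjusted p = 0.0752, SE 0.0718). Idi1 and Fdft1 had log2 fold changes of -0.42 and -0.41, and neither was called. The groups did not overlap for Cyp51, Idi1 or Fdft1 either. The summed neutrophil markers were 405 to 450.3 CPM with vehicle and 264 to 417 with CCM, and their part in the result was not tested. Over all libraries S100a9 of that list had 135 to 479 CPM, S100a8 97.4 to 405, Camp 8.0 to 49.6, Mpo 2.07 to 34.4, Elane 1.18 to 25.1 and Ly6g 0 to 0.562.

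The members above 0 with CCM alone were Ggps1, Srebf1, Scap and Npc1, in WT and also in KO. Ggps1, which draws on the isoprenoid pool before squalene, had a log2 fold change of 0.16 in WT, and Npc1 one of 0.21. Srebf2 was at -0.14, Insig1 at -0.11 and Stard4 at -0.05. None of these members was called by edgeR in WT, while DESeq2 called Npc1 higher.

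**Figure D3:**
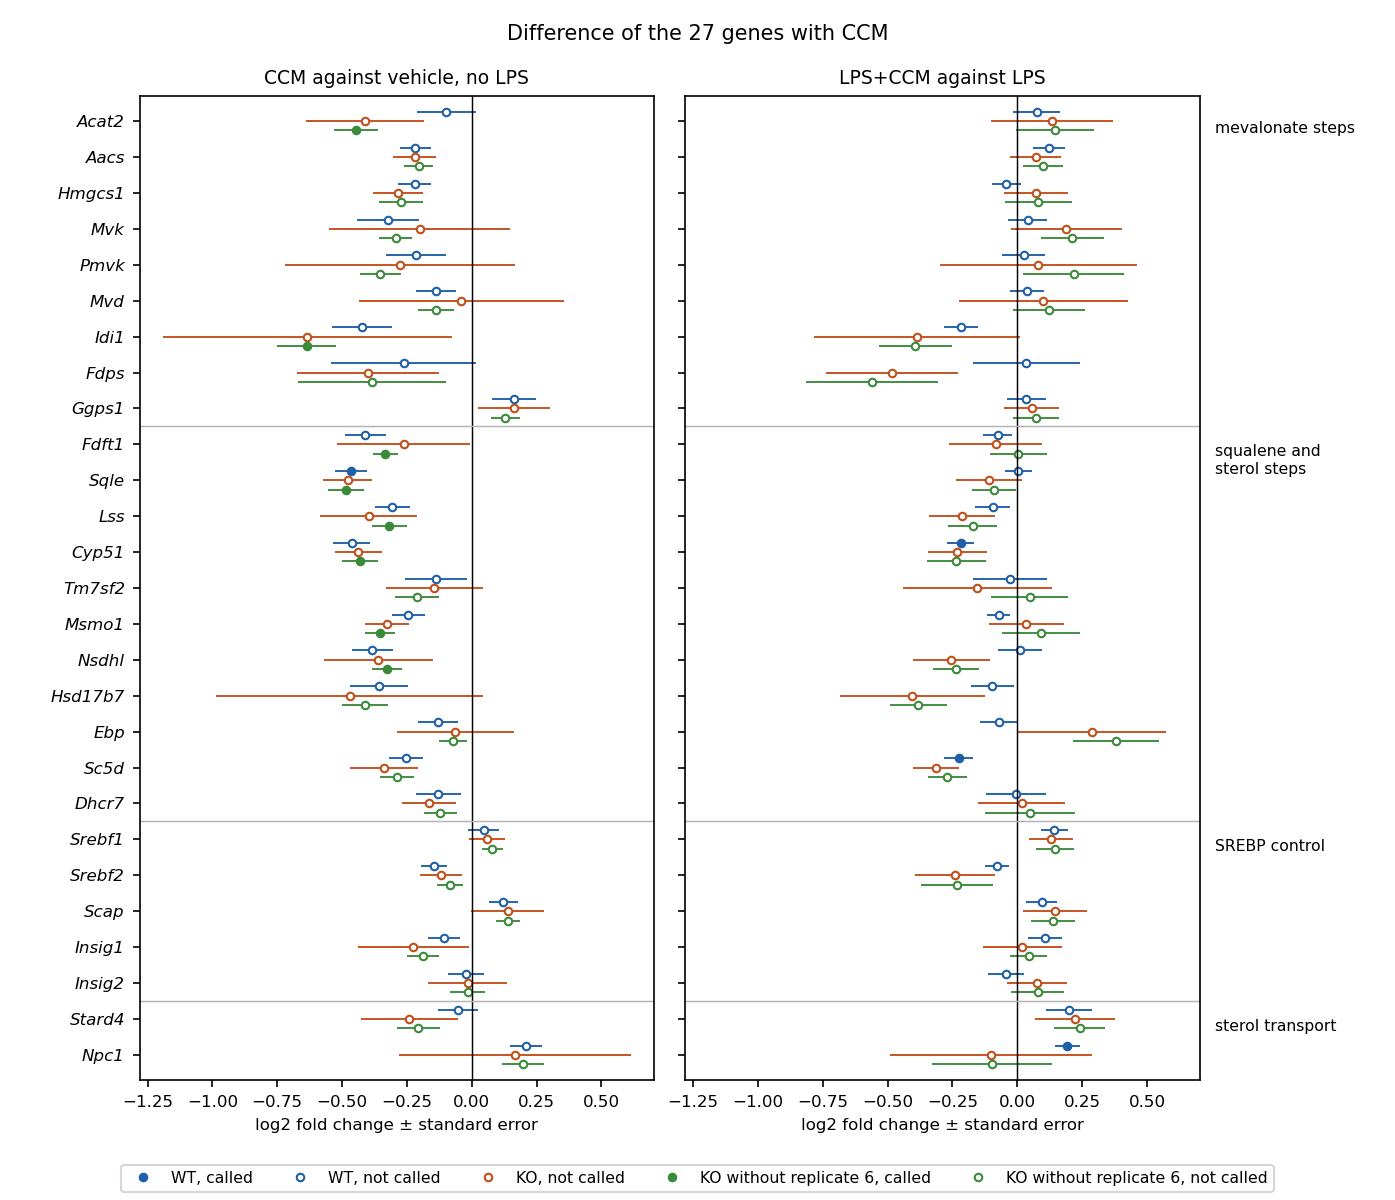
log2 fold change of each member with CCM (x axis), with its standard error as a bar, without LPS (left) and under LPS (right), in WT, in KO and in KO without replicate 6. Filled points were called at an adjusted p of at most 0.05. Without LPS, all 11 squalene and sterol genes lay below 0 in WT and KO.

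In KO, CCM alone gave 23 of 27 members below 0 with a median of -0.24, against 0.01 over all genes tested, and all 11 squalene and sterol genes were below 0. With all 6 replicates 0 members were called by edgeR, as were 0% of 13799 genes. At an unadjusted p under 0.05 there were 6 members and 2.41% of all genes. DESeq2 called Sqle and Cyp51 lower, against 0.104% of all genes. A fit with a replicate block called 13 members, all lower, against 1.70% of all genes called lower. They were 5 of the mevalonate steps, 7 of the squalene and sterol steps and Stard4. Same-numbered libraries correlated by 0.435 to 0.923 and the others by a median of 0.356, so this block also rests on a shared number only. Without KO replicate 6 and with no block, 8 members were called, all lower, against 0.489% of all genes. They were Acat2, Idi1, Fdft1, Sqle, Lss, Cyp51, Msmo1 and Nsdhl, with log2 fold changes of -0.45, -0.64, -0.33, -0.49, -0.32, -0.43, -0.35 and -0.33.

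The neutrophil markers summed to 350.4 to 859 CPM (median 551) with vehicle and 261 to 863 CPM (median 407) with CCM in KO, lower with CCM in 5 of 6 same-numbered replicates, and their part was not tested here either.

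Sqle ranged from 49.4 to 68.8 CPM (median 59.4) with vehicle and from 34.8 to 47.05 CPM (median 43.7) with CCM in KO. Replicate 6 was the lowest library of each group, and its vehicle value lay above every CCM value. The log2 fold change was -0.48 (edgeR adjusted p = 0.516, SE 0.0954) without the block, -0.47 (edgeR adjusted p = 8.36e-04, SE 0.0504) with it and -0.49 (edgeR adjusted p = 0.00841, SE 0.0683) without replicate 6. Cyp51 ranged from 74.1 to 95.9 CPM (median 84.9) with vehicle and from 57.8 to 67.7 CPM (median 63.2) with CCM, also without overlap. Its log2 fold change was -0.44 (edgeR adjusted p = 0.516, SE 0.0900) without the block and -0.43 (edgeR adjusted p = 4.69e-04, SE 0.0427) with it. Idi1 ranged from 1.78 to 24.1 CPM (median 19.98) with vehicle and from 0.975 to 16.2 CPM (median 12.5) with CCM. Leaving out replicate 6, which was the lowest library of both groups, narrowed these ranges to 16.4 to 24.1 and 11.6 to 16.2 CPM.

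The difference of the CCM effect between genotypes without LPS was tested in a comparison added after the data were seen. Of the members 0 were called by edgeR and 0 by DESeq2, as were 0% of 14905 genes by edgeR. At an unadjusted p under 0.05 there were 0 members, against 85 of the 14905 genes. KO minus WT, the difference was -0.02 for Sqle with a standard error of 0.137, and 0.01 for Cyp51 with a standard error of 0.138. Differences over the members ran from -0.32 (Idi1) to 0.14. Leaving out KO replicate 6, or adding the block, also gave 0 calls.

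Under LPS the members were spread about evenly around 0 with CCM in WT. The median log2 fold change of the members was 0.00, with 14 above and 13 below 0, and 0.01 over all genes tested. The test called 2 members lower and 1 higher, against 7.78% of 13579 genes called lower and 4.15% higher. Same-numbered libraries deviated together, and with the block 6 members were called. Idi1, Cyp51 and Sc5d were lower and Srebf1, Stard4 and Npc1 higher, against 13.3% and 10.4% of all genes, so the members' share was close to that of all genes. The LPS libraries here also serve the LPS comparison above.

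Cyp51 had 128, 131 and 139 CPM with LPS and 117, 112 and 111 with LPS and CCM, a log2 fold change of -0.22 (edgeR adjusted p = 0.0201, SE 0.0510). Sc5d (ENSMUSG00000032018, chromosome 9, 42251595 to 42264256) had 60.02, 62.2 and 60.6 CPM with LPS and 49.3, 54.8 and 51.4 with LPS and CCM, a log2 fold change of -0.23 (edgeR adjusted p = 0.0265, SE 0.0561). Npc1 had 193, 180.4 and 184 CPM with LPS and 215, 202 and 217 with LPS and CCM, a log2 fold change of 0.19 (edgeR adjusted p = 0.0303, SE 0.0493). None of these 3 pairs of groups overlapped, and Npc1 moved opposite to its fall with LPS. Of the 3 calls, 0 remained without WT LPS replicate 2, WT LPS replicate 3 or WT LPS+CCM replicate 3, 1 without WT LPS+CCM replicate 1 and 2 without WT LPS+CCM replicate 2. With total counts alone 3 members were called, all higher, against 11.3% of all genes, and 1 of them was among the calls above. Idi1 was at -0.22 (edgeR adjusted p = 0.0570, SE 0.0652) without the block and at -0.22 (edgeR adjusted p = 0.0184, SE 0.0623) with it, and of these 2 fits the call came with the block. Sqle was at 0.00 and was called in neither fit. The neutrophil markers summed to 368 to 406 CPM with LPS and 305 to 369.6 with both agents, and their part was not tested.

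In KO under LPS 0 members were called by edgeR, against 0.112% of 13386 genes, 1 member had an unadjusted p under 0.05, against 7.99% of all genes, and DESeq2 called 1, Sc5d, against 0.973% of all genes called lower. Sc5d ranged from 57.5 to 66.8 CPM (median 59.8) with LPS and from 44.9 to 53.4 CPM (median 50.5) with LPS and CCM. Every LPS+CCM library lay below every LPS library, and the log2 fold change was -0.31 (edgeR adjusted p = 0.254, SE 0.0885). Cyp51 ranged from 121 to 152 CPM (median 135) and from 103 to 153 CPM (median 115) in these groups, which overlapped through LPS+CCM replicate 5, the highest value of both. Leaving out replicate 6, or replicates 5 and 6 together (chosen after the data were seen), gave 0 called members as well. The genotype difference of the CCM effect under LPS gave 0 called members and 0 with DESeq2, with 0% of 14546 genes called. At an unadjusted p under 0.05 there were 0 members, against 72 of the 14546 genes. The members' differences ran from -0.50 to 0.37.

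**Figure D4:**
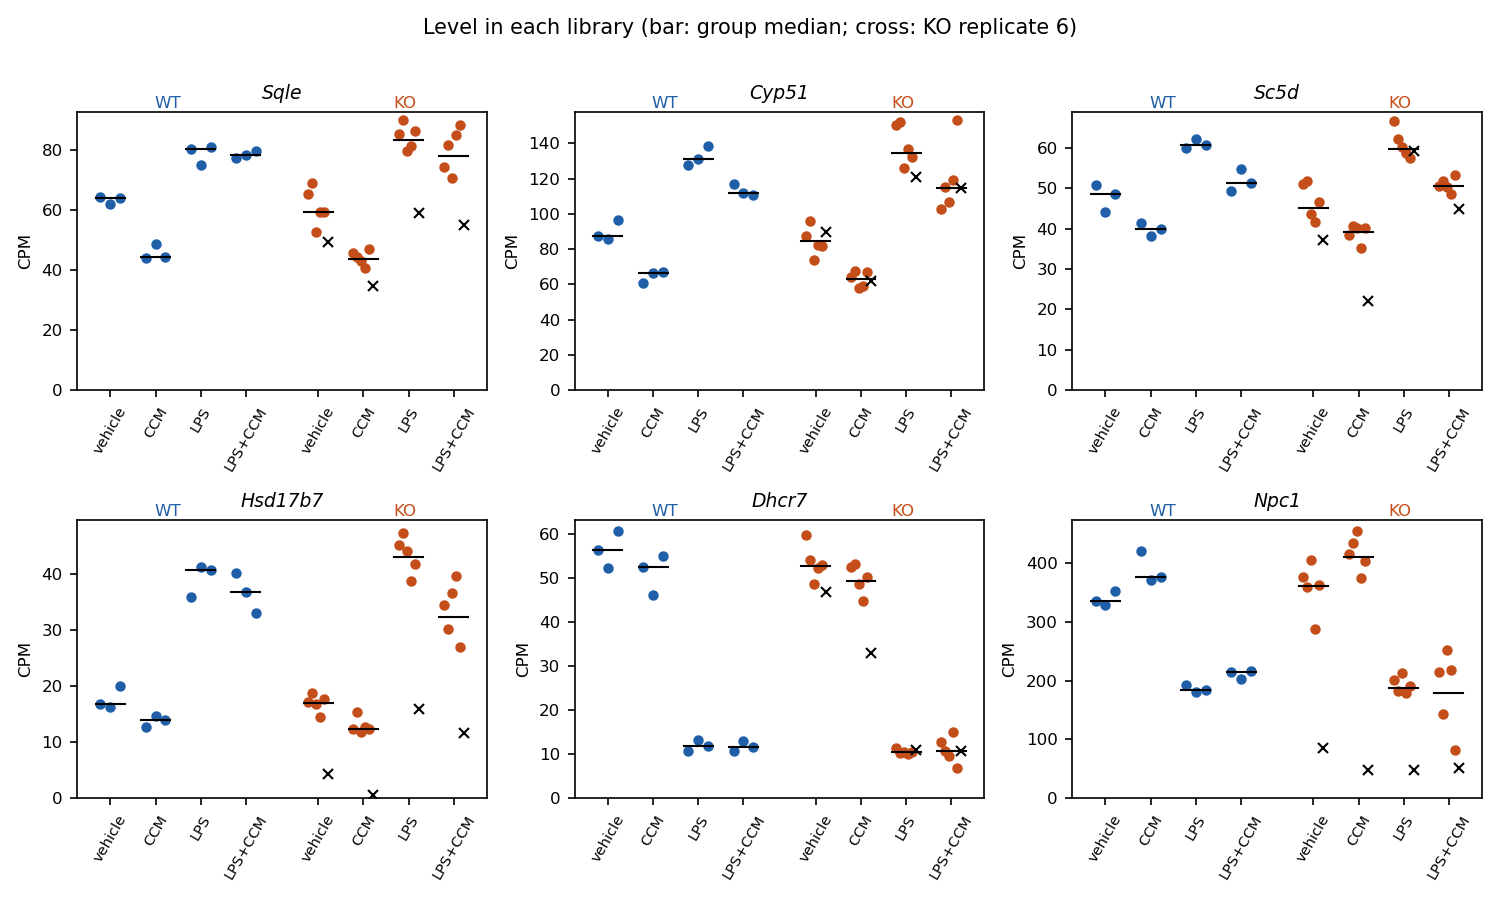
CPM of 6 members (y axis) in each library, by genotype and treatment (x axis). Points are libraries, bars are group medians and crosses are KO replicate 6. Sqle and Cyp51 lay lower in every CCM library than in every vehicle library of the same genotype, Dhcr7 and Npc1 fell with LPS in WT, and KO replicate 6 had the lowest Npc1 value of each KO group.

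Whether LPS changed the effect of CCM was tested as an interaction in each genotype. In WT 23 of 27 interaction terms were above 0, with a median of 0.16 against 0.02 over all genes, and so were all 11 terms of the squalene and sterol genes. A positive term means that the log2 fold change with CCM was less negative, or more positive, under LPS than without it. The test called 1 member higher and 0 lower, against 0.468% of 14747 genes called higher and 1.62% lower. That member was Sqle, whose level was 80.3, 74.8 and 80.8 CPM with LPS and 77.3, 78.3 and 79.6 with LPS and CCM. Those groups overlapped, unlike its groups without LPS, and the interaction term was 0.45 (edgeR adjusted p = 0.00801, SE 0.0765). Without WT replicate 2 or WT replicate 3 the call was lost, with edgeR adjusted p-values of up to 0.211.

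In KO 23 of 27 interaction terms were above 0 too, with a median of 0.20, including all 11 of the squalene and sterol genes. Without replicate 6, 22 terms were above 0 with a median of 0.23, and 0 members were called, against 10 of 14609 genes. With all 6 replicates edgeR called 0 members, against 0.00685% of 14588 genes, and DESeq2 called 0. At an unadjusted p under 0.05 there were 4 members, against 3.67% of all genes. The term of Sqle was 0.39 (edgeR adjusted p = 1, SE 0.154).

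Between genotypes no member passed the test. On simulated log2 changes of 1 this test recovered 24% of changed genes with vehicle and 29% with LPS, so it could miss many such changes. Between KO and WT with vehicle 0 members were called by edgeR and 0 by DESeq2, 0 had an unadjusted p under 0.05, and 0% of 14385 genes were called. With LPS the member counts were also 0, 0 and 0, with 0% of 13794 genes called and 105 at an unadjusted p under 0.05. The widest values belonged to Pmvk, at 0.56 with vehicle and 0.68 with LPS, where KO replicate 6 was far above the other libraries. Sqle was at -0.06 and Dhcr7 at -0.06 with vehicle. Leaving out KO replicate 6 gave 0 called members in each.

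Genes next to the pathway were examined through 3 lists. For all 3 lists, the share of all genes called with LPS in WT was 30.6% higher and 32.4% lower. Of 14 SREBP targets of fatty acid synthesis, 13 were tested, and with LPS in WT 3 were called higher and 9 lower (median log2 fold change -0.68), where the sterol enzymes mostly rose. At the extremes of this list, Fads1, a fatty acid desaturase, fell by 2.20 on the log2 scale and Acss2, an acetyl-CoA synthetase, rose by 1.46. Of 18 genes of sterol sensing, storage and transport, 10 were called higher and 6 lower, with the highest value, 5.68, for Ch25h, which makes an oxysterol that restrains SREBP. Of 8 LXR and efflux genes, 3 were called higher and 4 lower. With CCM alone all 8 were above 0 in WT (median 0.18) and in KO (median 0.19). In WT 1 was called by edgeR (the exporter Abcg1, at 0.56), against 0.0499% of all genes called higher. In KO 0 were called, against 0% of all genes, and 1 had an unadjusted p under 0.05, against 2.41% of all genes. The fatty acid list had 10 of 13 members below 0 with CCM alone in WT and 11 of 13 in KO, with medians of -0.15 and -0.14. Of these genes 0 were called by edgeR in either genotype. At an unadjusted p under 0.05 there were 4 in WT and 3 in KO, against 10% and 2.41% of all genes.

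KO replicate 6 departed from the other KO libraries in both directions. In all 4 treatments it lay above the other 5 replicates for 8 members and below them for 10. Pmvk was higher by 1.45 to 1.74 on the log2 scale than the median of the other 5, Mvd by 1.24 to 1.58 and Ebp by 0.78 to 1.12. Idi1, by contrast, differed from that median by -3.71 to -2.03, Hsd17b7 by -4.67 to -1.46 and Npc1 by -3.12 to -1.99. Cyp51, Hmgcs1, Aacs and Msmo1 lay between -0.22 and 0.18 of it in every treatment. Markers of other cell types moved with this replicate. Its neutrophil list summed to the highest value of each KO group (859 CPM with vehicle, against a KO median of 551). So did its B cell (4.55 to 9.76 CPM), T cell (1.12 to 3.13) and erythroid (4.21 to 10.4) lists, at low levels. Its dendritic list did so with LPS and CCM only. Its fibroblast list summed to 310.1 to 596 CPM, within the range of the other libraries. Its macrophage list summed to 11047 to 12814 CPM, within the range of the other KO libraries, and the genes of that list did not move one way. Mertk had 27.6 to 43.1 CPM against 40.2 to 187 in the other libraries, and Adgre1 had 259 to 934 against 678 to 2511. Csf1r had 1232 to 1464 against 1462 to 2356, and Itgam 71.9 to 96.8 against 75.7 to 131. Each of these genes had its lowest value of all libraries in replicate 6. Cd68 had its highest there, with 1013 to 1427 against 587 to 1248, and Lyz2, at 7882 to 9461, lay within the range of the others. Their part in the members' values was not tested.

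**Figure D5:**
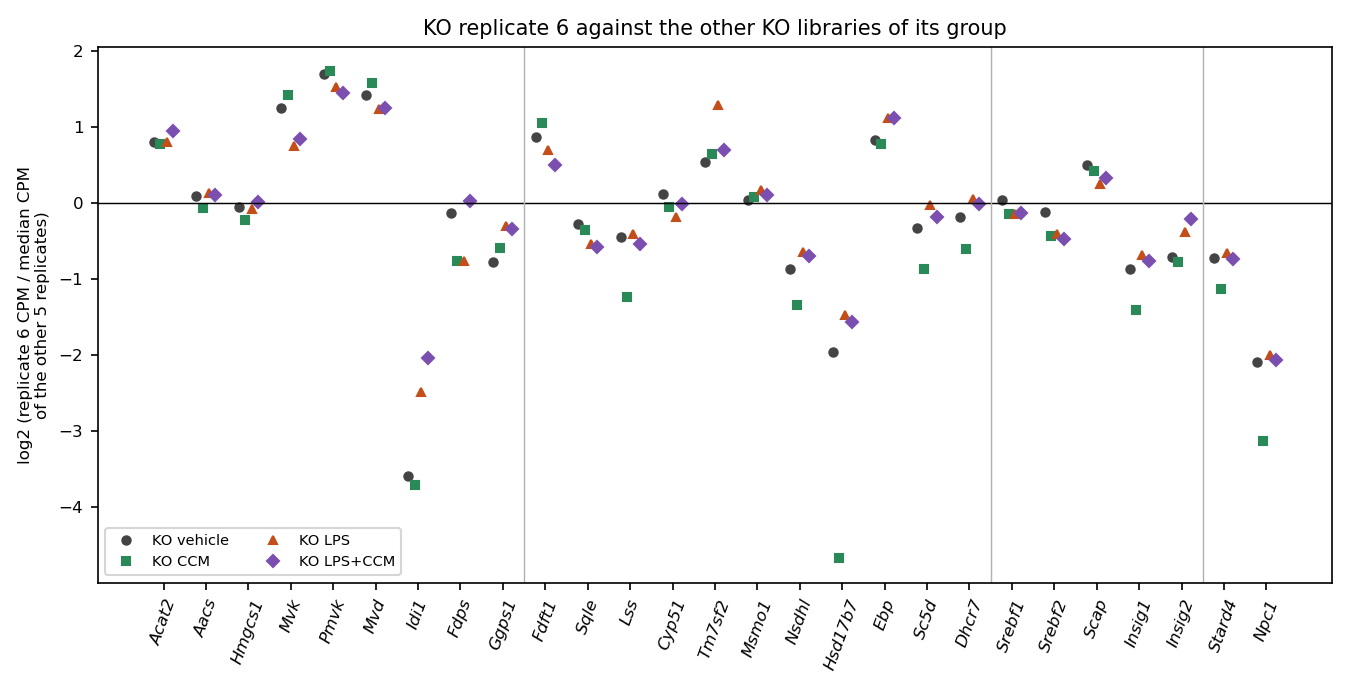
log2 ratio of the CPM in KO replicate 6 to the median CPM of the other 5 KO replicates of the same treatment (y axis) for each member (x axis). Each point is 1 treatment. Idi1, Hsd17b7 and Npc1 lay furthest below 0, and Pmvk and Mvd furthest above it.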

How the data were processed

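The authors trimmed reads with fastp, aligned them to mm10 with HISAT2 2.0.5 and counted reads per gene with featureCounts 1.5.0-p3, and deposited raw counts for 36 libraries in 1 table. All 36 count columns were matched to labelled samples and 0 were left unused. The strand setting is not given in the sources used here, so overlapping genes are uncertain. Each comparison was fitted on the libraries it concerns with edgeR 4.0.16 in R 4.3.3 (filterByExpr, TMM, quasi-likelihood test, two-sided), with Benjamini-Hochberg adjustment over all genes tested and a threshold of 0.05. CPM values were computed with TMM factors over all 36 libraries. Alternatives were RLE and upper-quartile factors, total counts alone, no filter beyond 1 count, DESeq2 1.42.0, 1 fit of all libraries, a replicate block and leaving out each replicate. Depth was 13469262 to 28288923 counts, and no 2 replicates agreed within sampling noise. The replicate numbers come from the sample titles. Same-numbered samples were taken as paired where their departures from the group means correlated by over 0.1 in every pair, which held for LPS in WT (0.114 to 0.224), LPS in KO (0.345 to 0.907), CCM alone in KO (0.435 to 0.923) and CCM under LPS in WT (0.210 to 0.451). In KO the differently numbered samples also passed 0.1, with medians of 0.285 for LPS and 0.356 for CCM alone. The rule therefore does not show pairing there. All 27 members were accounted for by role, naming those called and those furthest from 0. Members, lists and tests were chosen with earlier results of these data known. The fits were tested on simulated data with log2 changes of 1. They recovered 63% to 81.5% of changed genes in the WT comparisons and 23% to 43.5% in the KO comparisons. Between genotypes they recovered 24% (vehicle) and 29% (LPS). For the genotype interactions they recovered 11% (LPS) and 8% (CCM under LPS). Absent calls in KO and between genotypes are therefore weak evidence of no change. The members' log2 fold changes with CCM lay between -0.63 and 0.29, and changes that small were not simulated. Absent calls with CCM in WT are therefore not shown to mean no change either.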

Additional observations from a re-analysis of the deposited data

Results flagged for a closer look

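In each KO group of 6 libraries, the highest or lowest value of each member was compared with its nearest neighbour, relative to the range of the group. Of 108 such groups 49 had a value standing apart. By chance the rule flags about 1 in 20 groups, but all members were read in the same libraries, so these groups are not independent. The share of flags over all genes was not determined. Replicate 6 stood apart in its correlations over all genes as well, so the count is not a result about these members. KO replicate 6 held 46 of these values and KO LPS+CCM replicate 5 held 3. Their cause was not tested.

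With vehicle, replicate 6 was far above the other replicates at 24.3 for Acat2, 37.3 for Mvk, 56.7 for Pmvk, 97.5 for Mvd, 53.5 for Fdft1, 76.5 for Ebp and 90.02 for Scap CPM. It was far below them at 1.78 for Idi1, 9.53 for Ggps1, 22.9 for Lss, 11.5 for Nsdhl, 4.42 for Hsd17b7, 53.3 for Insig1, 16.6 for Insig2 and 84.9 for Npc1 CPM.

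With CCM, replicate 6 was far above at 18.9 for Acat2, 35.3 for Mvk, 48.5 for Pmvk, 102 for Mvd, 48.3 for Fdft1, 18.4 for Tm7sf2 and 71.6 for Ebp CPM. It was far below at 0.975 for Idi1, 12.1 for Ggps1, 10.2 for Lss, 6.68 for Nsdhl, 0.487 for Hsd17b7, 22.1 for Sc5d, 33.1 for Insig1 and 47.8 for Npc1 CPM.

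With LPS, replicate 6 was far above at 36.6 for Acat2, 30.8 for Mvk, 63.1 for Pmvk, 108 for Mvd, 98.4 for Fdft1, 20.1 for Tm7sf2 and 62.8 for Ebp CPM. It was far below at 5.75 for Idi1, 58.8 for Sqle, 16.03 for Hsd17b7, 202 for Srebf2, 59.4 for Insig1 and 47.9 for Npc1 CPM.

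With LPS and CCM, replicate 6 was far above at 118 for Mvd CPM. It was far below at 12.97 for Nsdhl and 58.7 for Insig1 CPM. Replicate 5 of the same group was far above the others at 122 for Hmgcs1, 153 for Cyp51 and 194 for Msmo1 CPM.

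The effect of CCM on Sqle in WT differed between cells with and without LPS by 0.45 on the log2 scale, the interaction term that passed the test.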

How the results depend on the processing

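Of 478 alternative values of called members, 391 kept their direction and their side of the threshold, 80 kept their direction but lost the call, and 7 turned. The 7 came with total counts alone. With LPS in WT they were Aacs (-0.19), Mvd (-0.068), Sqle (-0.072), Lss (-0.022), Msmo1 (-0.18) and Sc5d (-0.033), and in KO Msmo1 (-0.10), where the median of all genes shifted by -0.41 and -0.38. Below, brackets after a count of members give the genes called among all genes tested in the same fit. For CCM alone in WT, 1 member was called (8 of 14024). Upper-quartile factors gave 0 (4 of 14024), no filter 5 (377 of 25725) and DESeq2 6 (247 of 10261). One fit of all libraries gave 0 (0 of 15720), the replicate block 4 (255 of 14024) and leaving out any replicate 0 (0 to 16 genes). For CCM alone in KO 0 were called (0 of 13799). DESeq2 gave 2 (24 of 16425), the fit of all libraries 2 (14 of 15720), the block 13 (429 of 13799) and leaving out a replicate 0 to 8 (0 to 141 genes). For LPS in WT 20 were called (9139 of 14501). The fit of all libraries gave 7 (5644 of 15720), and leaving out a replicate 17 to 21 (8357 to 9070 genes). For LPS in KO 12 were called (6433 of 13648). The block gave 24 (9774 of 13648) and leaving out a replicate 10 to 24 (5429 to 9612 genes). For CCM under LPS in WT 3 were called (1621 of 13579). The fit of all libraries gave 0 (17 of 15720), the block 6 (3220 of 13579) and leaving out a replicate 0 to 3 (893 to 1352 genes). For CCM under LPS in KO 0 were called (15 of 13386). DESeq2 gave 1 (180 of 13868) and the block 2 (777 of 13386). For the LPS by CCM interaction in WT 1 was called (308 of 14747). Upper-quartile factors gave 2 (268 of 14747), total counts alone 4 (347 of 14747) and DESeq2 2 (696 of 7875). The fit of all libraries gave 0 (0 of 15720) and leaving out a replicate 0 to 1 (0 to 174 genes). The cause of these changes was not tested. Same-numbered samples did not all deviate together for CCM alone in WT (correlations of -0.004 to 0.56) or CCM under LPS in KO (-0.19 to 0.89), so the block there rests on a shared number only. The block changed no other count by over 1.5 times, and no paired analysis was possible for KO against WT because the 2 genotypes come from different mice.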
